A study of Mus musculus with 8 samples.

Results

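Nanog, Pou5f1 (which encodes Oct4), Sox2, Dppa5a, Lefty1 and Dnmt3a were followed across gonads of mouse embryos of both sexes, with and without the secreted signal Wnt4. The members are all probe sets annotated to these 6 genes, 10 of the 12488 on the Affymetrix MG_U74Av2 array. There was 1 array for each of 8 groups: females and males, wild type (WT) or Wnt4 knock-out (KO), at E12.5 or E14.5. Whole gonads of embryos picked by their morphology were used, and the labels name no strain and no number of embryos per array. With 1 array a group, no value has a replicate, and precision is limited by how few arrays there are.

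The fetal gonad receives primordial germ cells, which carry much of the gene network of pluripotent stem cells. Nanog, Pou5f1 and Sox2 are the transcription factors at the centre of that network, and Dppa5a encodes an RNA-binding protein of the same cells. In the fetal ovary germ cells leave this state and enter meiosis, while in the fetal testis they arrest in the cell cycle and later regain DNA methylation, in which the methyltransferase Dnmt3a acts. Nodal, a ligand of the TGF-beta family, signals through Smad2 and Smad3 and switches on its own inhibitor Lefty1, and in testis germ cells this signal is known to go along with pluripotency gene expression.

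The promoter windows of the 3 transcription factor genes are shown because these factors are known to bind each other's genes, through an octamer for Oct4 and a neighbouring Sox element. RefSeq windows (GRCm38.p6) were found for 4 of the 6 genes. Those below cover the 120 bases before the start of the gene, 5′ to 3′ on the + strand, and capitals mark matches to the octamer core (TTTGCAT), the Sox core (ACAATG or ACAAAG) and the GC box (GGGCGG), each searched on both strands.
Nanog, chr6:122707369-122707488: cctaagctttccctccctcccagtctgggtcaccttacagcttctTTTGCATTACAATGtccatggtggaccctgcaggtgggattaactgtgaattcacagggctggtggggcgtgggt
Sox2, chr3:34649875-34649994: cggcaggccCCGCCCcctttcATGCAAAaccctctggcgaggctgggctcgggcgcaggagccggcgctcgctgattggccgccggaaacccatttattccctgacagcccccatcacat
Pou5f1, chr17:35505912-35506031: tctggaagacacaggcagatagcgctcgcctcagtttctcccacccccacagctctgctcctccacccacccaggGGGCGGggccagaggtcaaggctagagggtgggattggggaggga
In Nanog an octamer core is followed, 1 base on, by a Sox core, and the base between them is in capitals too. Among 32851 RefSeq windows of 300 bases, 4.63% held the octamer core, 28.6% the Sox core, 35.7% the GC box, and 7 windows of 6 genes held an octamer core with a Sox core at most 2 bases on. The Sox2 window holds the octamer core on the reverse strand and, before it, a GC box on the reverse strand. The Pou5f1 window shown holds a GC box. A match describes the letters only, and no binding was measured.

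The genes lie apart in the genome (GRCm38.p6). Lefty1 is at chr1:180935022-180938401, Sox2 at chr3:34649995-34652461, Nanog at chr6:122707489-122714633, Dppa5a at chr9:78367052-78368199, Dnmt3a at chr12:3801559-3914443 and Pou5f1 at chr17:35506032-35510777. Of the 10 probe sets, 6 passed the filter on low values, 1 for each gene: 161072_at for Nanog, 103075_at for Pou5f1, 100009_r_at for Sox2, 160370_at for Dppa5a, 102345_at for Lefty1 and 100479_at for Dnmt3a. The letter r in a probe set's name, as for Sox2, marks a design with relaxed rules for choosing probes. The other 4 stayed low. Nanog 161653_f_at lay between 4.24 and 5.46, Lefty1 162480_f_at between 5.71 and 6.17 and Dnmt3a 161170_r_at between 2.93 and 3.59 on the log2 scale. Pou5f1 161159_r_at lay between 5.15 and 5.49 on 6 arrays, and in the E14.5 males it was just above the floor in WT and at 6.85 in KO. All levels below are log2 signals centred on the array median, and values under 6.99, the 40th percentile of all values, count as at the floor. Mouse retrocopies of Nanog, Pou5f1 and Dppa5a exist, and whether the probes also match them was not examined.

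A few facts of the arrays touch the results. Leaving the E14.5 males aside, any pair of the 6 remaining arrays had a Pearson r across probe sets of 0.979 to 0.997. The E14.5 male arrays had 0.883 to 0.907 with these 6 and 0.996 between them (a description, since genes are not replicates). The gap between 3′ and 5′ actin signal, a sign of RNA quality, was 0.48 to 0.77 on the female and 0.96 to 1.37 on the male arrays. The array labelled WT female E14.5 held the Y-linked transcript Eif2s3y at 7.63, inside the male range of 6.91 to 8.12. This was above the 4.86 to 6.04 of the other female arrays. Xist on it was at 7.10, against 7.69 to 8.13 in the other females and at most 4.79 in males. The lowest male Eif2s3y value, 6.91 in the KO at E14.5, was under the floor. The Y-linked Uty and Kdm5d were under the floor on all 8 arrays. Wnt4 was lower in KO than in WT in each of the 4 pairs, with differences of -1.60 and -1.14 in females and -0.92 and -0.23 in males, at E12.5 and E14.5. The labels do not place its probe set against the deleted part of the gene.

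Amh, the Sertoli cell hormone that removes the female duct, lay between 9.04 and 9.70 in the males and between 7.82 and 8.13 in the females. Of the 13 fitted Sertoli genes, 5, Amh among them, had every male above every female. For the WT female E14.5 array, 4 others reached the level of at least 1 male of that stage (Aard, Dhh, Inhbb and Ctsl), with Aard at 9.87 against 9.81 and 9.21 in the WT and KO males and 8.50 in the KO female. On that array 11 of the 13 were higher than in the KO female of the stage. The part of these genes in the female E14.5 results was not tested. Germ cells were seen through Ddx4, a germ cell RNA helicase, and Dazl, a germ cell RNA-binding protein. Ddx4 was at 7.88 to 8.22 on the E12.5 arrays, at 9.77 and 9.67 in the E14.5 females and at 8.88 and 8.83 in the E14.5 males. Dazl was above the floor on all 8 arrays, from 9.04 to 10.60. Both belong to a list of 8 fitted general germ cell genes. Of these, 4 were higher and 4 lower at E14.5 than at E12.5 in females. Limma called 2 in each direction, beside 23.1% of all probe sets called. In whole gonads, fewer germ cells and less RNA per germ cell cannot be told apart.

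**Figure D1:**
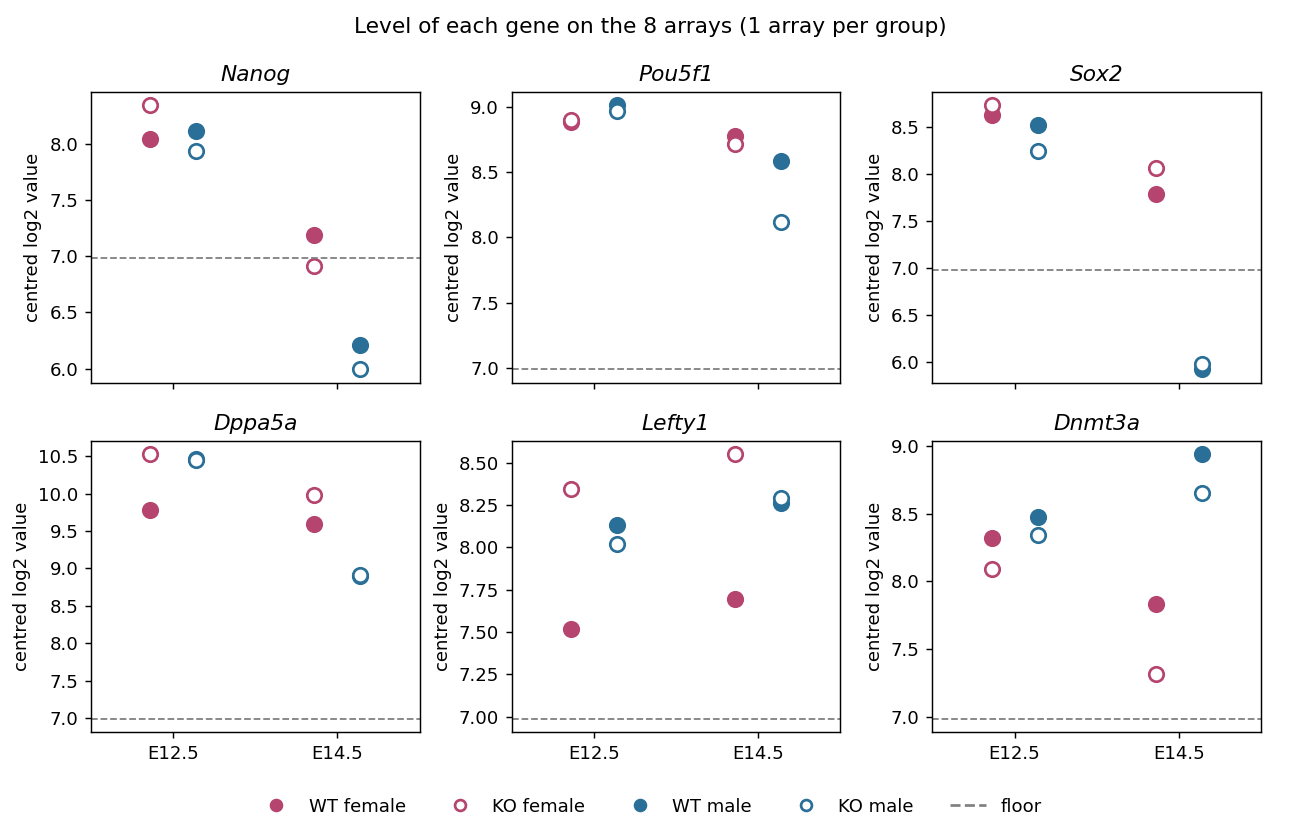
Centred log2 level of each gene (vertical axis, its own scale in each panel) on the 8 arrays, by stage (horizontal axis). Filled points are WT and open points KO, females left and males right at each stage, and the dashed line is the floor of 6.99. Nanog and Sox2 drop below the floor in both E14.5 males, and Lefty1 is lowest in the WT females at both stages.

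In females lacking Wnt4, the Nodal inhibitor Lefty1 and the pluripotency marker Dppa5a were higher than in WT at both stages, Dnmt3a was lower at both, and Pou5f1 hardly moved. The fitted differences were 0.84 ± 0.07 (SE; 1.79-fold) for Lefty1, 0.57 ± 0.10 (1.48-fold) for Dppa5a and -0.38 ± 0.10 for Dnmt3a. None passed the test across all probe sets. The comparison asks how loss of Wnt4 alters the transcripts of the ovary.

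Lefty1 was at 7.52 in the WT female and 8.34 in the KO female at E12.5. At E14.5 it was at 7.69 in the WT female and 8.55 in the KO female. The male arrays lay at 8.13 (WT) and 8.02 (KO) at E12.5 and at 8.26 and 8.29 at E14.5. Both WT females thus lay below each of the other 6 arrays, and the KO females lay above the males of the same stage. The KO minus WT differences were 0.83 at E12.5 and 0.86 at E14.5 in females, against -0.11 and 0.03 in males. WT males exceeded WT females by 0.61 and 0.57, whereas KO male minus KO female was -0.32 and -0.26, at E12.5 and E14.5. The limma adjusted p was 0.346 for the KO effect in females and 0.434 for the difference between the sexes (-0.88 ± 0.10). Without the WT female E14.5 array, the female difference was 0.83. Only 5 of 8452 fitted probe sets (0.0592%), of 3 genes, were higher by at least 0.5 in KO females at both stages: Lefty1, 3 probe sets of Cxcl12, which encodes the chemokine that germ cells follow on their way to the gonad, and Postn, a matrix protein. These counts carry no test.

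Dppa5a was at 9.79 in the WT female, 10.53 in the KO female, 10.47 in the WT male and 10.45 in the KO male at E12.5. At that stage the WT female stood alone below the other 3 groups. At E14.5 it was at 9.60 in the WT and 9.99 in the KO female, and at 8.90 and 8.91 in the WT and KO males. The KO minus WT difference was 0.74 at E12.5 and 0.39 at E14.5 in females, and -0.02 and 0.01 in males. With 1 array left out, the fitted female difference ran from 0.39 to 0.74, and it was 0.74 without the WT female E14.5 array. For females the limma adjusted p was 0.433, and the difference between the sexes was -0.57 ± 0.14 (limma adjusted p = 0.434). In the WT pair at E12.5 the male exceeded the female by 0.68, and in the KO pair male minus female was -0.08.

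Dnmt3a was at 8.32 in the WT and 8.09 in the KO female at E12.5, and at 7.84 and 7.32 at E14.5. In males it was at 8.47 and 8.34 at E12.5, and at 8.94 and 8.65 at E14.5, WT first. The KO array was lower than the WT array by 0.23 and 0.52 in females and 0.13 and 0.29 in males. How many of all probe sets were lower in all 4 pairs was not counted. The KO effect was -0.38 ± 0.10 in females (limma adjusted p = 0.433) and -0.21 ± 0.10 in males (limma adjusted p = 0.793). Without the WT female E14.5 array, or without its KO partner, the value in females was -0.23.

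The 3 transcription factor genes showed smaller differences. Sox2 was at 8.64 and 8.74 in the WT and KO females at E12.5 and at 7.79 and 8.07 at E14.5, a KO effect of 0.19 ± 0.09 (limma adjusted p = 0.478). Nanog was at 8.04 and 8.35 at E12.5 and at 7.19 and 6.91 at E14.5, the last below the floor. The pairs of Nanog therefore pointed opposite ways, and its KO effect was 0.05 ± 0.13 with a 95% interval from -0.29 to 0.40. Pou5f1 was at 8.89 and 8.90 at E12.5 and at 8.78 and 8.71 at E14.5, and its KO effect of -0.03 ± 0.11 had an interval from -0.32 to 0.27. The sign for Pou5f1 turned without centring (0.014) and with quantile normalization (0.023), both values far smaller than the SE.

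Of the 6 genes, 0 passed in females by limma, and 0 of all 8452 probe sets did (0.00%). At an unadjusted p under 0.05 there were 962 probe sets (11.4%), among them Lefty1 (8.3e-05), Dppa5a (0.0024) and Dnmt3a (0.012). The median of the 6 was 0.12, beside -0.02 over all probe sets.

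**Figure D2:**
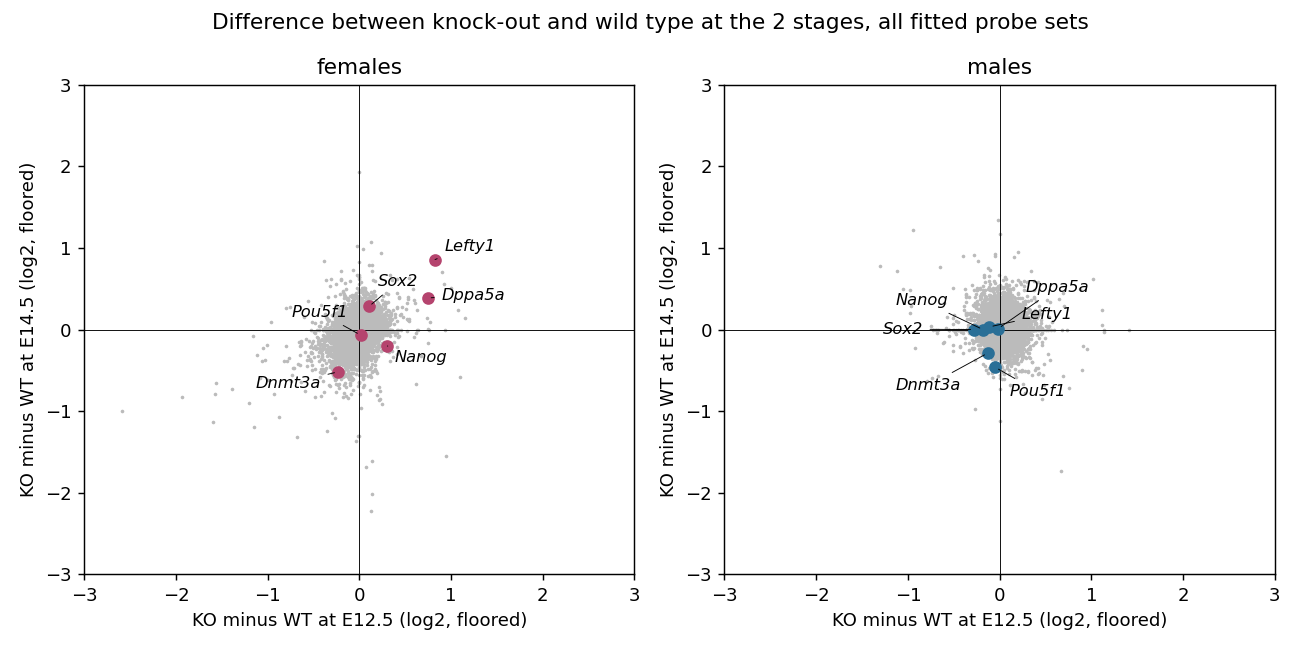
KO minus WT difference at E12.5 (horizontal axis, log2) against that at E14.5 (vertical axis, log2) for each fitted probe set (grey) and the 6 genes (coloured), females left and males right, with values under the floor set to it. In females Lefty1 lies at 0.83 and 0.86 and Dppa5a at 0.74 and 0.39, away from the grey cloud, while in males both lie near 0.

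In males lacking Wnt4, none of the 6 genes was clearly apart from WT. The 6 fitted differences ran from -0.25 ± 0.11 for Pou5f1 to -0.00 ± 0.10 for Dppa5a, with a median of -0.11 beside 0.01 over all probe sets. With 1 array left out, Dppa5a ran from -0.015 to 0.012 and Lefty1 from -0.11 to 0.033. The pair with the largest gap was that of Pou5f1 at E14.5, at 8.58 in the WT and 8.12 in the KO male, after 9.02 and 8.97 at E12.5. Sox2 was at 8.52 in the WT and 8.25 in the KO male at E12.5 and at 5.92 and 5.99, under the floor, at E14.5. Nanog was at 8.12 and 7.94 at E12.5 and at 6.21 and 5.99, also under the floor, at E14.5. In the fit, the E14.5 male differences of Sox2 and Nanog thus count as 0. Limma called 0 of the 6 (adjusted p from 0.793 to 1) and 0 of all probe sets (0.00%). An unadjusted p under 0.05 was found for 405 (4.79%), none of them a member. On the KO male E14.5 array the meiosis gene Stra8, induced by retinoic acid in ovarian germ cells, was at 7.44 against 5.70 in the WT male. The part of that difference between the arrays in the male results was not tested.

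Between the sexes, the KO effects differed most for Lefty1, Dppa5a and Sox2 (-0.33 ± 0.13), each more negative in males. Those of Pou5f1 (-0.23 ± 0.16), Nanog (-0.14 ± 0.19) and Dnmt3a (0.17 ± 0.14) were within 2 SE of 0. By limma 0 of the 6 and 0 of all probe sets (0.00%) passed for this difference, with adjusted p from 0.434 to 0.718 for the 6, and 971 probe sets (11.5%) had an unadjusted p under 0.05. Averaged over both sexes, 0 of the 6 and 0 of all (0.00%) passed, with adjusted p from 0.556 to 0.980 and 489 probe sets (5.79%) at an unadjusted p under 0.05.

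From E12.5 to E14.5, the ovary lost Nanog, Sox2 and Dnmt3a signal, while Pou5f1 and Lefty1 stayed within 0.21 of their earlier level in each genotype. By limma the stage effect in females was -1.11 ± 0.13 for Nanog (adjusted p = 0.0124, with 1 of its 4 values set to the floor), -0.76 ± 0.09 for Sox2 (adjusted p = 0.0130) and -0.63 ± 0.10 for Dnmt3a (adjusted p = 0.0177). Dppa5a, at -0.36 ± 0.10, was just outside the threshold (limma adjusted p = 0.0559). Pou5f1 had -0.15 ± 0.11 (limma adjusted p = 0.400) and Lefty1 0.19 ± 0.07 (limma adjusted p = 0.109), and the Lefty1 value turned to -0.06 without centring. Thus 3 of 6 were called lower, beside 14.6% of all probe sets called lower and 23.1% called in either direction. These calls ended in each fit with 1 array left out, in the fit without both E14.5 male arrays (0 of 8452 probe sets called in each) and in the fit without the filter (40 of 12422 called), while the sizes without an array ran from -0.86 to -1.36 for Nanog, -0.67 to -0.85 for Sox2 and -0.49 to -0.77 for Dnmt3a. Without centring, which moved the median of all probe sets to -0.27, 4886 of the 5156 called were lower.

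The same fall was seen in both genotypes. Nanog dropped by 0.86 in WT females and, with the KO female E14.5 value under the floor, by at least 1.36 in KO females. Sox2 dropped by 0.85 in WT and 0.67 in KO females. Dnmt3a dropped by 0.49 and 0.77. The differences of Dppa5a, which did not pass, were -0.19 and -0.54. At least 2-fold falls were seen for 0.450% of all probe sets in the WT and 0.260% in the KO females, and Nanog in the KO females was the 1 member among them. On the same arrays, 6 of 10 measured genes of meiosis were fitted, and limma called all 6 higher. Stag3, a cohesin subunit, was the 1 gene of them measured at both stages, and rose by 1.39 ± 0.07. The other 5 were under the floor in both E12.5 females, so their values are lower bounds, and those bounds, their calls and the list median of 0.98 depend on the floor. Stra8 was higher by at least 2.08, Syce2, a part of the synaptonemal complex, by at least 1.17 and Figla, an oocyte transcription factor, by at least 0.80. With both E12.5 values at the floor, none of the 5 could come out lower. Sycp1, Syce2 and Figla also passed the filter only through the E14.5 females. The count of meiosis genes called higher therefore shows no shared direction, and only Stag3 was free to fall.

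**Figure D3:**
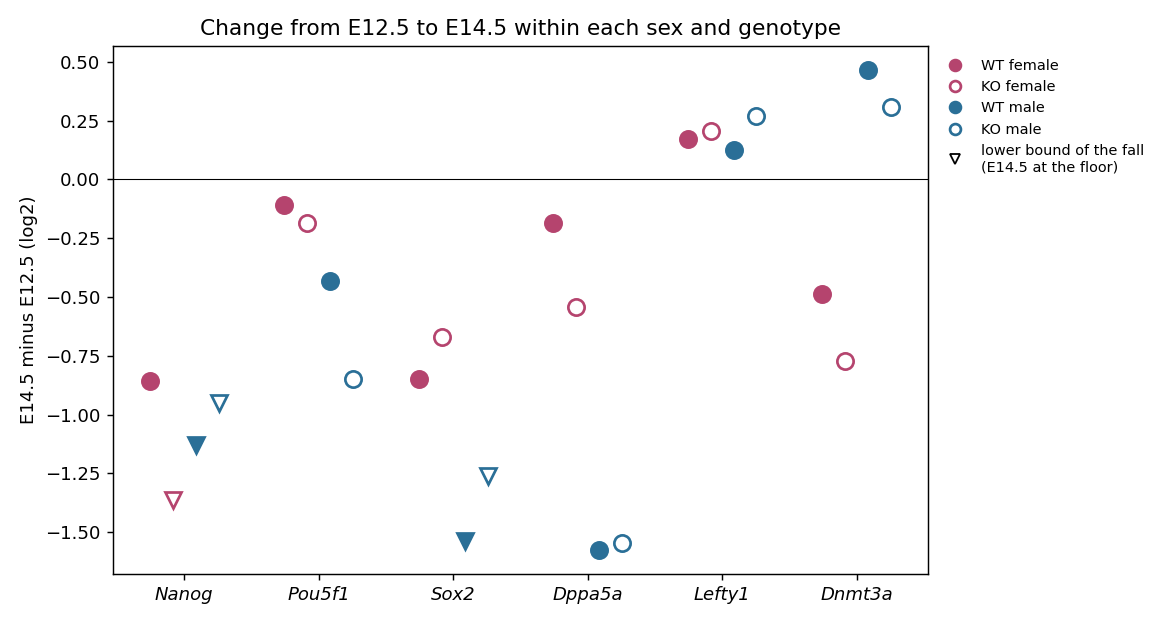
Change from E12.5 to E14.5 (vertical axis, log2) of each gene in the 4 sex and genotype pairs, with females in red, males in blue, WT filled and KO open. Triangles are lower bounds of a fall whose E14.5 value is under the floor. Dppa5a lies at -0.19 and -0.54 in females and at -1.57 and -1.55 in males, and Dnmt3a lies below 0 in females and, on centred values, above 0 in males.

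In the male pairs, the same transcription factors fell from E12.5 to E14.5 and Dppa5a fell further than in females. Nanog dropped by at least 1.13 in WT and 0.95 in KO males, and Sox2 by at least 1.54 and 1.26, with all E14.5 male values of both under the floor. Dppa5a dropped by 1.57 and 1.55, and Pou5f1 by 0.43 and 0.85. Falls of at least 2-fold were thus seen for Nanog, Sox2 and Dppa5a in WT males, beside 13.7% of all probe sets, and for Sox2 and Dppa5a in KO males, beside 13.7% too. Dnmt3a was higher at E14.5 by 0.47 and 0.31, and Lefty1 by 0.13 and 0.27. The limma fit called all 6, at -1.56 ± 0.10 for Dppa5a, -1.40 ± 0.09 for Sox2, -1.04 ± 0.13 for Nanog, -0.64 ± 0.11 for Pou5f1, 0.39 ± 0.10 for Dnmt3a and 0.20 ± 0.07 for Lefty1 (adjusted p from 1.4e-04 to 0.0450). The Sox2 and Nanog values there are bounds set by the floor. The same fit called 77.8% of all probe sets, so a call here is near the background. Without centring, which moved the median of all probe sets to -0.69 and left 787 of 7116 called higher, the values of Dnmt3a (-0.39) and Lefty1 (-0.58) turned negative. Leaving out any 1 male array left 3 of the 6 called.

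Stage effects differed between the sexes for 4 of the 6 genes by limma, beside 69.0% of all probe sets. The male minus female difference was -1.20 ± 0.14 for Dppa5a (adjusted p = 0.0015), 1.02 ± 0.14 for Dnmt3a (0.0025), -0.64 ± 0.13 for Sox2 (0.0108) and -0.50 ± 0.16 for Pou5f1 (0.0428). The Sox2 value depends on the floor. Pou5f1 161159_r_at, not fitted, pointed the other way as measured. Dnmt3a kept a positive value without centring (0.49), a setting that moved the median of all probe sets to -0.41 and left 1065 of 5890 called higher. For Nanog the difference was 0.07 with the floor and -0.78 without it, since both male values at E14.5 lie under it. Leaving out 1 array left 0 to 3 of the 6 called. It was 0 without the KO male array of either stage, 1 without the WT male array of either stage, 2 without the KO female array of either stage or the WT female E14.5 array, and 3 without the WT female E12.5 array.

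At E12.5, male minus female differences, averaged over genotypes, ran from -0.30 ± 0.09 for Sox2 to 0.30 ± 0.10 for Dppa5a, and 0 of the 6 were called by limma (adjusted p from 0.0901 to 0.599), beside 16.3% of all probe sets. For Dppa5a and Lefty1 these averages combine genotype pairs of opposite sign, 0.68 in WT and -0.08 in KO for Dppa5a and 0.61 and -0.32 for Lefty1. With 1 array left out the Dppa5a average ran from 0.13 to 0.48. Without centring, which moved the median of all probe sets to 0.12 and called 2460 of 2873 higher, 3 of the 6 passed. At E14.5, Dnmt3a was higher in males by 1.22 ± 0.10 (limma adjusted p = 2.9e-04), at 8.94 and 8.65 against 7.84 and 7.32. The gap was over 2-fold in the WT pair (1.10) and in the KO pair (1.33), as for 7.69% and 7.05% of all probe sets. It stayed called in each alternative run, from 0.83 without centring to 1.36 without the WT female E14.5 array. Sox2 (-0.94 ± 0.09, a bound set by the floor), Dppa5a (-0.89 ± 0.10) and Pou5f1 (-0.39 ± 0.11) were lower in males. Pou5f1 161159_r_at, not fitted and mostly under the floor, was higher in males as measured, by 1.68 in the WT and 1.36 in the KO pair. For Nanog the fitted difference was -0.10 ± 0.13 (limma adjusted p = 0.519), with both males and the KO female set to the floor. As measured, male minus female for Nanog was -0.97 in the WT and -0.92 in the KO pair. In all, 4 of the 6 were called, beside 77.5% of all probe sets, and 2 without the KO male E14.5 array. The Lefty1 difference of 0.16 ± 0.07 turned to -0.23 without centring, which left 1690 of 6150 called higher.

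The results at E14.5 in males rest on the pair of arrays that stood apart from the other 6, with the lowest deposited medians (7.08 and 7.04 against 7.42 to 7.85), so the stage of the testis and the state of these arrays cannot be told apart.

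Other genes of the pluripotency network did not share 1 direction in the ovary. Of 32 measured, 24 were fitted, and limma called 3 higher and 5 lower at E14.5 in females (median -0.02, as over all probe sets). In that comparison 23.1% of all probe sets were called, and the calls did not hold with 1 array left out. The listed genes with the largest changes were Mycn (-0.93 ± 0.09), Tcl1, a co-activator of the kinase Akt (-0.92 ± 0.09), Dppa3, which protects methylation in the early embryo (0.68 ± 0.16), and Tex19.1, which acts in germ cells against transposons (0.66 ± 0.11). For the KO effect in females, 9 were positive and 12 negative with none called (median -0.04). Dppa4 had the largest gap there, at 10.34 in the WT and 8.32 in the KO female at E14.5 but 8.92 and 9.06 at E12.5 (fitted -0.94 ± 0.52, limma adjusted p = 0.493). These E14.5 values were the highest and the lowest of the 8 arrays. Utf1, a chromatin factor of stem cells, was at 10.02 in the WT and 9.05 in the KO female at E14.5. The KO female was the lowest of the 8 arrays for Utf1, and the WT female lay near the E12.5 females (9.94 and 9.95).

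In the Nodal pathway, ligand and co-receptors were under the floor. Nodal was at 6.13 to 6.69 on all 8 arrays, and Tdgf1 and Cfc1, its co-receptors, and Cer1, its antagonist, were under the floor too. Of 24 measured genes 19 were fitted, and the KO effect in females was positive for 7 and negative for 12 (median -0.02), with 0 called. The largest was that of Fst, whose product follistatin blocks activins, at 9.02 in the WT and 7.09 in the KO female at E12.5 and at 8.25 and 7.42 at E14.5. Fst is also on the pregranulosa list, of which 8 of 9 fitted genes were negative in KO females. Between the stages in females, 6 were positive and 13 negative. Limma called 2 of these genes higher and 6 lower, beside 23.1% of all probe sets called. Inhba, an activin subunit, was at 0.94 ± 0.16 and the receptor Acvr2b at -0.64 ± 0.07. The repressor Tgif1 was at -0.58 ± 0.09 and the inhibitor Smad7 at -0.52 ± 0.09. Foxh1, the DNA-binding partner of Smad2 in Nodal signalling, was at 9.26 and 9.14 in the E14.5 males and at 8.01 to 8.46 on the other 6 arrays. Gdf3, a ligand related to Nodal, was at 8.87 and 8.86 in those males and at 7.83 to 8.18 elsewhere.

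Among 10 fitted genes of DNA methylation other than Dnmt3a, of 14 measured, the KO effect in females was positive for 2 and negative for 8 (median -0.07) with none called. From E12.5 to E14.5 in females 2 were called higher and 4 lower, among them Hells, a chromatin remodeller needed for methylation (0.65 ± 0.12), and Dnmt1, the maintenance methyltransferase (-0.33 ± 0.06). Calls in that comparison, made for 23.1% of all probe sets, did not hold with 1 array left out. In males Hells differed by -1.72, a bound, since the WT male E14.5 array was under the floor at 6.81. General germ cell genes, all 8 measured being fitted, had a KO effect in females with a median of -0.04, 4 positive and 4 negative. Their list mean was 8.43 in both E12.5 females, and 8.45 and 8.41 in the WT and KO females at E14.5. The part of germ cell number in the Lefty1 and Dppa5a differences was not tested. Over the stages in females, Ddx4 (1.57 ± 0.08) and Dazl (0.81 ± 0.15) were called higher, and Kit, the receptor for stem cell factor (-1.23 ± 0.11), and Rhox5 (-0.72 ± 0.06) lower.

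**Figure D4:**
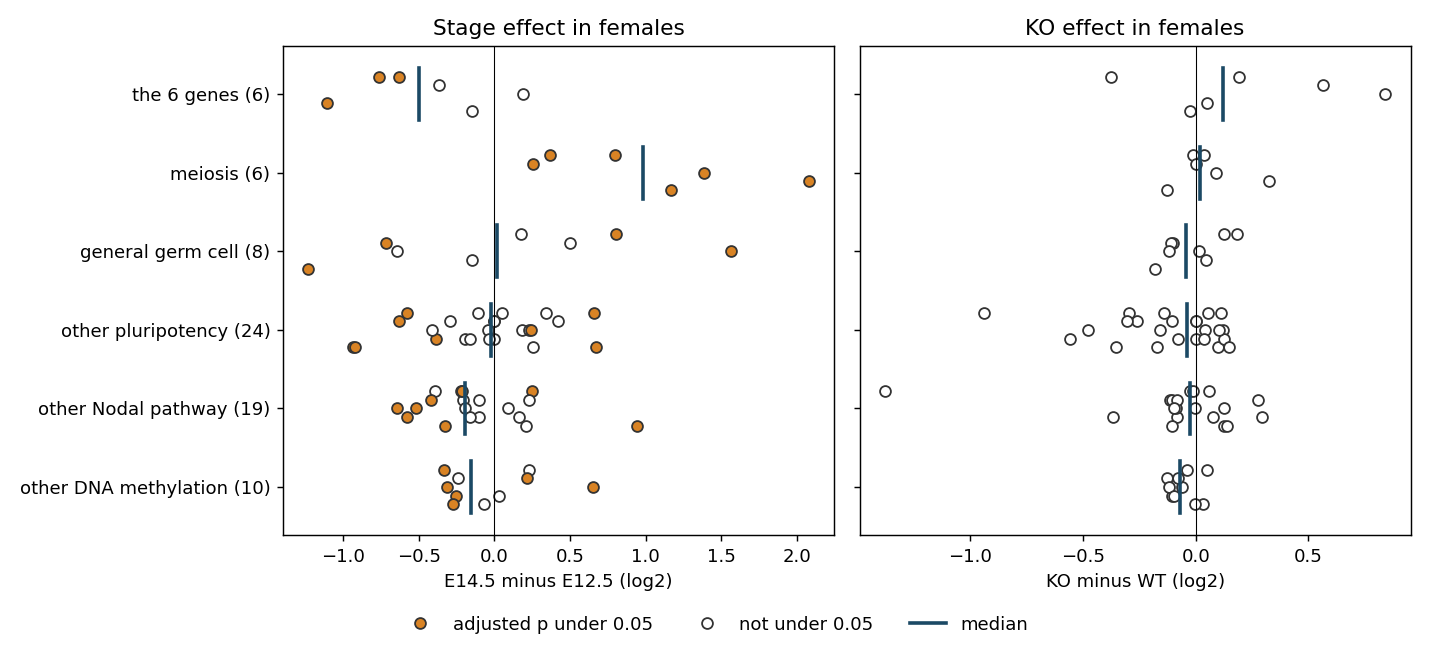
Fitted log2 difference of each gene (points, filled orange where the limma adjusted p is under 0.05) and the list median (bar) for the 6 genes and 5 gene lists, with the number of fitted genes in parentheses. Left, E14.5 minus E12.5 in females, where 5 of the 6 genes described here lie below 0. All 6 meiosis genes lie above it, 5 of them as lower bounds that the floor kept from lying below 0. Right, KO minus WT in females, where no gene passes and Lefty1 (0.84) lies farthest to the right.

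Marker lists of other cell types, some of which might hold Sox2 or Lefty1 outside the germ line, had no called gene in KO females. Neural and neural crest genes had 8 of 9 positive values with a median of 0.07, mesonephros and epithelium genes 4 of 11 with a median of -0.07, endothelial genes 8 of 10 with 0.09 and macrophage genes 6 of 7 with 0.06, none called. Sox10, a neural crest factor, was above the floor on all 8 arrays, at 7.95 to 9.14. Erythroid genes had 2 of 9 positive (median -0.13), Sertoli genes 1 of 13 (-0.16) and Leydig genes 2 of 6 (-0.15). The median over all probe sets was -0.02, and their share of positive values was not counted. The Leydig list mean was 8.69 on the WT female E14.5 array and 7.78 on its KO partner. The 4 male germ cell genes measured were all too low to be fitted. The part of these lists in the Lefty1 and Dppa5a differences was not tested.

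Profiles most like those of the members were sought on the 6 arrays left when the E14.5 males were set aside, among 2683 probe sets of other genes with a range of at least 0.5. The resulting correlations describe 6 points that share the stage change and carry no test. They use the centred values as measured, under the floor too, and 19 of the 30 genes named were above the floor on all 6 arrays. Traf6 was above it on 0 of the 6 arrays, Zfp42 and Thbd on 1, Sec14l1 on 2, and Smad3 and S100a8 on 3, so their r rests largely on values that have no order here. Nanog was closest to Zfp930 (r = 0.991), Zfp42, Kit (0.984), Tcl1 (0.984) and Pcyt1a (0.980). Over all 8 arrays Kit stayed close (0.992). Sox2 was closest to Cd2ap (0.994, and 0.997 over 8 arrays), followed by Celf1, Traf6, Ror1 and Smad3. Dnmt3a was closest to Wdr48 (0.999), Ifrd2, Trim59, Gnpnat1 and Cdca7, and Pou5f1 to Nono (0.999), Set, Sec14l1, Sfpq and Nudt4. Dppa5a was closest to Gata4, a factor of gonadal somatic cells (0.951), then Cx3cl1, Scarb2, Txnrd3 and Pnmt. Lefty1 had the weakest match, St3gal4 at 0.861, followed by Tnnc1, S100a8, Thbd and Pdpk1. Among the members, Nanog correlated with Sox2 at 0.874, with Dnmt3a at 0.855 and with Pou5f1 at 0.850 over the 6 arrays, and Lefty1 with Nanog at -0.155 and with Dppa5a at 0.564.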

How the data were processed

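The authors deposited log2 signals, and the submitters' processing notes name MAS5, with a version and scaling not given in the sources used here. For the KO male E12.5 array, the deposited values held 14 spreadsheet date numbers of another unit, which were set to missing. Arrays were centred on the common median, and values under the 40th percentile (6.99) were set to that floor, so a difference against it is a bound. A probe set was fitted when 2 or more arrays exceeded the floor; with 66 controls dropped, 8452 remained. The model, sex × genotype plus sex × stage, was fitted with limma 3.58.1 in R 4.3.3 (two-sided, intensity trend, Benjamini-Hochberg at 0.05) and was tested on simulated data. Its 2 residual degrees of freedom, with 2.77 prior ones, come from how the KO effect varies between stages, so p-values do not measure the spread between embryos. Members and gene lists were chosen with earlier results of these data known. The text names every member, up to 4 genes per list with the largest differences, and the 5 probe sets of other genes most correlated with each member over 6 arrays. Markers (Eif2s3y, Xist, Amh, Ddx4, Dazl) and the list genes whose per-array values are given were named after their values were seen. Alternatives changed the floor, centring, normalization, trend, filter and model, and left out arrays.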

Additional observations from a re-analysis of the deposited data

Results flagged for a closer look

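Stage effects that differed between the sexes, by limma's test of the difference itself, were found for Dppa5a (-1.20), Dnmt3a (1.02), Sox2 (-0.64) and Pou5f1 (-0.50), each as male minus female on the log2 scale. The same test passed for 69.0% of all probe sets. Dppa5a fell by 1.57 and 1.55 in the WT and KO males against differences of -0.19 and -0.54 in the females. Dnmt3a was higher at E14.5 by 0.47 and 0.31 in males and lower by 0.49 and 0.77 in females. Sox2 in the E14.5 males lay under the floor, so its difference depends on that choice. The second Pou5f1 probe set, mostly under the floor and not fitted, pointed the other way as measured. All 4 rest on the E14.5 male arrays, which correlated with the other arrays at 0.883 to 0.907.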

How the results depend on the processing

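Of 780 values of the members under the alternatives, 651 kept their direction and their side of the threshold and 40 changed sign, the latter in 16 of 54 comparisons of a member. The cause of these changes was not tested. Without centring, sign changes were found for Nanog (KO over both sexes 0.0025, stage by sex -0.033), Pou5f1 (KO in females 0.014, and 0.023 with quantile normalization), Lefty1 (stage in females -0.062, stage in males -0.58, stage by sex -0.52, sex at E14.5 -0.23) and Dnmt3a (stage in males -0.39). The Nanog stage by sex value was -0.78 without the floor and -0.75 with a lower one. With 1 array left out, Nanog ran from -0.20 to 0.31 (KO in females), -0.40 to 0.11 (KO by sex), -0.15 to 0.11 (KO over both sexes), -0.19 to 0.32 (stage by sex), -0.42 to 0.085 (sex at E12.5) and -0.35 to 0.15 (sex at E14.5). On the same basis Pou5f1 ran from -0.067 to 0.013 (KO in females) and -0.11 to 0.31 (sex at E12.5), Sox2 from -0.042 to 0.097 (KO over both sexes), Dppa5a from -0.015 to 0.012 (KO in males) and Lefty1 from -0.11 to 0.033 (KO in males) and -0.064 to 0.080 (stage by sex). The number of the 6 genes called for stage in females was 5 without centring, 0 without the filter, 0 without both E14.5 male arrays and 0 with any 1 array left out, where 0 of all probe sets passed. For stage in males it was 3 to 5 and for stage by sex 0 to 3 with 1 array left out, and 2 for stage by sex without the filter. For sex at E12.5 it was 3 without centring, and for sex at E14.5 it was 2 to 4 with 1 array left out. All KO counts of called members stayed at 0 under the alternatives run. A second probe set of Nanog, Pou5f1, Lefty1 and Dnmt3a gave no fitted value, since each failed the filter. No paired analysis was possible because the groups share only 1 replicate number, which leaves no replicate block to fit, and the model already compares KO with WT within each sex and stage. Signal near the floor limits Nanog and Sox2 at E14.5.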
